A study of Rattus norvegicus with 12 samples.

Results

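The mammary gland of young female rats whose dams ate a low protein diet (LP) was compared between day 28 and day 21 of life. The members were all 6 LP samples of the 12 in the series, chosen by diet and day alone: 3 glands from day 21 (labelled 4a, 6a and 7c) and 3 from day 28 (4f, 6f and 7f). All dams were Wistar rats that received 25 g of food per day during pregnancy, with 8.8% protein in the LP group and 17.0% in the normal protein (NP) group. Litters were reduced to 6 females and suckled for 21 days, and both diet groups had standard chow during lactation and after weaning, so weaning lay between the sampling days. The lumbar glands were removed, visible lymph nodes were cut away and total RNA was hybridised to 1-colour Agilent arrays, 1 array per sample. The labels do not say whether the glands came from separate litters, so every p-value below measures only the spread between these samples. Each group had 3 arrays, and that number limits the precision. All day 21 arrays lay on slide 1 and all day 28 arrays on slide 2, so day and slide cannot be told apart in any difference below.

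Around weaning the rat mammary gland is a small, growing tree of epithelial ducts embedded in a fat pad that also holds vessels, nerves, fibroblasts and immune cells. Interferons are signals that make cells switch on antiviral genes through the STAT factors and IRF proteins, and the same genes respond wherever such a signal reaches a tissue. Red cell precursors, imprinted growth genes and replication genes are most active in fetal and early postnatal life.

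Values are log2 of the processed signal minus the 75th percentile of the same array, so 0 is that percentile and 1 unit is a doubling. Differences are day 28 minus day 21, on the log2 scale, and levels are compared only within a probe. Of 22170 probes (19312 genes) tested, 1 passed an adjusted p of 0.05 in limma, which is 0.00451% of probes. At an unadjusted p under 0.05 there were 2404 probes (10.8%), 4.14% higher and 6.71% lower at day 28, and 1.17% of probes also differed 2-fold. By gene, 177 were 2-fold higher and 69 were 2-fold lower, so 72.0% of them were higher, against 55.3% without array 4f and 86.8% with another background correction (normexp). Counts of list members below use the unadjusted p for description, and none but the 1 adjusted call is a finding of change. For members counted once at their brightest probe, the background was 4.37% higher and 6.1% lower at that p, 7.66% and 11.1% with day groups that did not overlap, and a median difference over all genes of -0.01.

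Among the day 21 arrays, 6a stood apart. Its median correlation with the other LP arrays was 0.960 against 0.982 to 0.985, and it took a score of 99.3 on the first principal component (51.7% of the variance), where the others lay between -35.1 and -5.5. The luminal, basal, fat cell, fibroblast and endothelial markers on the array were well above background on all 6 LP arrays. The summed linear level of the T cell markers was 0.132 on 6a and 4.61 to 8.23 on the other 5, and that of the B cell markers 0.0682 against 2.57 to 5.06. The median of each list is therefore plotted with and without 6a below.

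The gene that passed the adjusted test was Alox15, a lipoxygenase that oxygenates arachidonic and linoleic acid and is known from eosinophils, macrophages and reticulocytes. Its probe lies at chr10:57186202-57186261 (rn4, minus strand). Alox15 stood at -0.34, -0.24 and -0.05 on the day 21 arrays 4a, 6a and 7c, and at -3.59, -3.55 and -3.47 on the day 28 arrays 4f, 6f and 7f. The day groups were far apart and each was tight. Alox15 fell by 3.33 (SE 0.11), or 10.04-fold, with an adjusted p of 0.00273. In NP glands its difference was -3.04 (adjusted p = 0.207), from 0.48, -0.58 and -0.30 to -4.06, -2.18 and -3.29, and the difference between diets had an adjusted p of 0.9999 (limma). The adjusted p in LP rose past 0.05 without 4f (0.0725), 6f (0.0741) or 7f (0.0584) and with all 12 arrays in 1 fit (0.0775), while the difference itself stayed between -3.25 and -3.39 without any 1 array.

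At an unadjusted p under 0.05, interferon-response genes were higher at day 28 in more members than any other of the 42 lists examined. The lists were chosen with earlier results of these data known. All 41 tested members had a positive difference, 31 of the 41 were higher at an unadjusted p under 0.05 (25 of them 2-fold) and none was lower, against 4.37% and 0.88% of all genes. Their median was 1.33, or 1.28 without 6a, against -0.01 over all genes, and no member passed the adjusted test. The promoters of 4 members are shown here for the letters they share. The interferon response element (GAAA, any 2 bases, GAAA) was searched on both strands, from 250 bases before to 50 after each annotated start (RefSeq, GRCr8), and was chosen after the values were seen. It was present in 21 of the 31 members with a promoter in the table (67.7%), against 3.77% of all 27457 promoters and 2.93% of tested genes with one. Capitals mark the matches. Each sequence reads 5′ to 3′ along the gene's own strand.
Irf7: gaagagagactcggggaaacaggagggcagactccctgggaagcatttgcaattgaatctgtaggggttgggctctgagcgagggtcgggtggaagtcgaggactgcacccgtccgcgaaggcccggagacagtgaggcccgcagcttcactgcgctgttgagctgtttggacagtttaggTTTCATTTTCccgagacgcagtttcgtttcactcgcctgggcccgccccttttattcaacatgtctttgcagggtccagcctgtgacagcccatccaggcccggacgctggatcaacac
Ifit3: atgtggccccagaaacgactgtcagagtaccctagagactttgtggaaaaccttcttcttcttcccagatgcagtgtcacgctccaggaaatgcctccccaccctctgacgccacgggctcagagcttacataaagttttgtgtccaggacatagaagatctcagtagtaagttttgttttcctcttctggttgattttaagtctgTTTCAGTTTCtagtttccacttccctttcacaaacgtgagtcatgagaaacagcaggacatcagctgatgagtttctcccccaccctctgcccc
Cxcl10: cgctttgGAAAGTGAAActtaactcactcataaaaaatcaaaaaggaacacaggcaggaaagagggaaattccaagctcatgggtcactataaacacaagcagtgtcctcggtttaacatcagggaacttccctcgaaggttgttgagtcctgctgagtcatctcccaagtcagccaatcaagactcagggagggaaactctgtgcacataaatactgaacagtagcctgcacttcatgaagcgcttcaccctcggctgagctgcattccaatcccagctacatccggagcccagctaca
Bst2: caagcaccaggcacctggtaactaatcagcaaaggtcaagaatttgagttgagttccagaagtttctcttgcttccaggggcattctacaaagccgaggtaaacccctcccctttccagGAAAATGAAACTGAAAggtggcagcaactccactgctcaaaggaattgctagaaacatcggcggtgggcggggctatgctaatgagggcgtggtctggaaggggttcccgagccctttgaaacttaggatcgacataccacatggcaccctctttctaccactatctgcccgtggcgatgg
These windows lie at chr1:205799974-205800273 (minus strand) for Irf7, chr1:241527076-241527375 (plus) for Ifit3, chr14:15988816-15989115 (plus) for Cxcl10 and chr16:18254918-18255217 (minus) for Bst2. The match begins at -69 from the start of Irf7, -44 of Ifit3 and -243 of Cxcl10, and Bst2 holds 2 overlapping matches at -131 and -125. A match is a description of letters and not a bound site.

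Irf7, the factor that amplifies the interferon response, stood at 0.10, 0.05 and -0.42 at day 21 and at 3.30, 0.62 and 4.41 at day 28. The difference was 2.87 (SE 0.95, 7.31-fold, adjusted p 0.415). Array 7f was highest and 6f lay just above the day 21 group, with no overlap. Isg15, a ubiquitin-like antiviral protein, showed the same order, with -0.72, -0.77 and -1.61 at day 21 against 3.34, -0.13 and 3.80 (difference 3.37, adjusted p 0.406). Ifit3, which binds viral RNA in complex with its relatives, stood at -5.28, -5.89 and -6.05 against -0.89, -4.65 and -0.40 (difference 3.76). Cxcl10, a chemokine that draws activated T cells, stood at -3.10, -3.06 and -3.06 against 0.34, -2.0 and 2.50 (difference 3.36, adjusted p 0.409). In each of these genes 4f and 7f carried most of the difference. Cxcl11, a ligand of the same receptor, was not well above background on any day 21 array and was at least 6.85-fold higher at day 28 (measured means apart by 4.47 on the log2 scale). Cxcl11 passed the filter through the day 28 arrays alone. Its place in the counts of the interferon and chemokine lists therefore gives no separate support.

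Effectors and sensors of the pathway had the same pattern. Mx1, a GTPase that blocks viruses, stood at 1.60, -0.38 and 1.38 against 3.73, 1.99 and 4.47, which was 5.78-fold higher (adjusted p 0.408). Oas1a (2.50) and Oasl2 (2.18), of the oligoadenylate synthetase family, Usp18 (2.61), which removes Isg15 from proteins, and Rtp4 (2.65) had positive differences with unadjusted p under 0.05. The cytosolic RNA sensors Ifih1 (1.17), Ddx58 (1.27) and Dhx58 (1.93) did so as well. Bst2, the tetherin that holds budding virions at the membrane, stood at 2.0, 1.61 and 2.01 against 3.36, 2.50 and 3.76 (difference 1.33, adjusted p 0.359). Ifi47, an interferon-induced GTPase, stood at -1.66, -2.14 and -1.89 against -0.05, -1.05 and 0.53 (difference 1.71, adjusted p 0.347). Smaller differences were seen for Gbp2 (1.32), Parp14 (1.04), the immunoproteasome subunits Psmb8 (0.91) and Psmb9 (0.86), and Irf9 (0.87), a DNA-binding transcription factor of the interferon response.

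The transcription factor Stat2 (0.89, adjusted p 0.477) did not reach that p. Rsad2, the antiviral protein viperin, stood at -0.69, -0.59 and -0.43 at day 21 and at 1.47, -1.84 and 1.80 at day 28, so array 6f lay below the whole day 21 group. Tlr3, a receptor for double-stranded RNA, differed by 0.38 (adjusted p 0.776), and its sign turned without 7f.

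**Figure D1:**
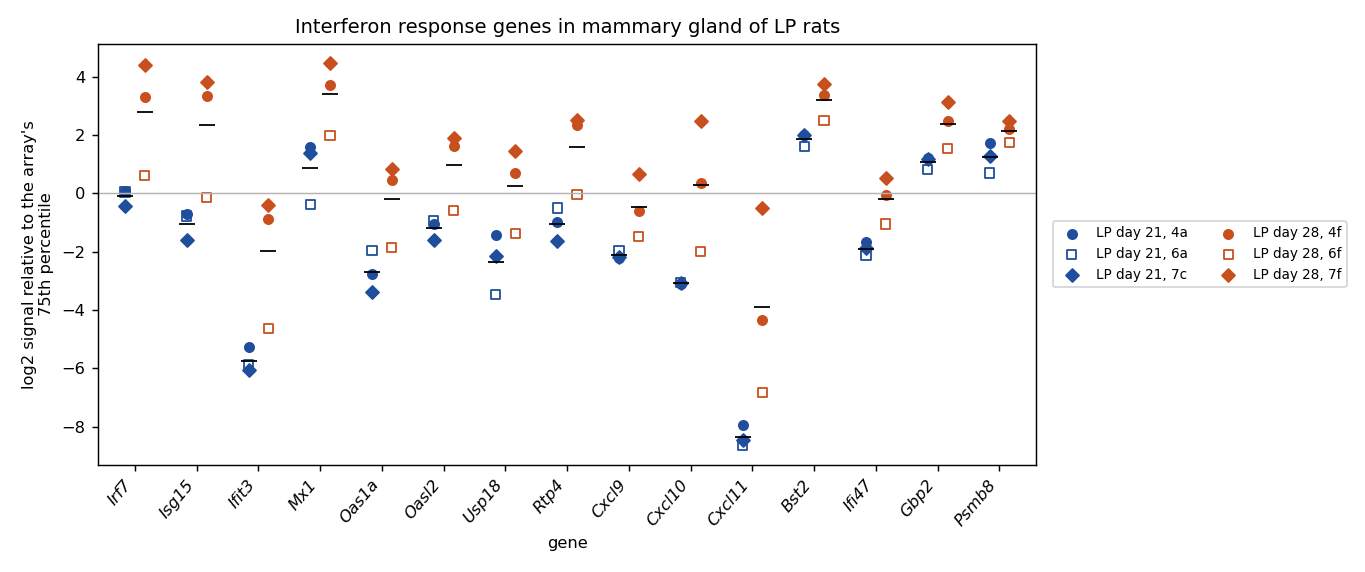
Level of 15 interferon-response genes on each LP array, as log2 of the processed signal relative to the array's 75th percentile (y axis); each point is 1 array, with day 21 and day 28 side by side for each gene. The day 28 points spread widely, with 6f lowest and 7f highest for most genes, and Irf7 runs from 0.62 to 4.41 at day 28 against -0.42 to 0.10 at day 21.

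The 3 day 28 glands were ordered alike across the pathway. Array 7f was the highest of all 6 for 40 of 41 members, and 6f was the lowest day 28 array for 40 of 41. The summed linear level of the list was 171.6 to 178.6 at day 21 and 210.9, 346.0 and 454.2 at day 28 on 6f, 4f and 7f. The count of 31 changed to 18 without 4a, 19 without 6a, 9 without 7c, 6 without 4f, 39 without 6f and 9 without 7f, while the median stayed between 0.99 and 1.98. The summed level of the T and NK cell list on 4f, 6f and 7f was 41.1, 39.5 and 37.1, and its mean log2 level was -1.0, -0.97 and -0.77. On the same arrays the summed level of the macrophage list was 142.4, 160.2 and 193.8, that of the skeletal muscle list 5.5, 176 and 6.1, and that of the fat synthesis list 511, 222 and 483. The part of these lists in the order of the interferon genes was not tested. In NP glands 5 members were higher at the same p (7.08% of all genes) with a median of 0.75. Their summed level was 160.2 to 212.2 at day 21 and 228.5 to 419.5 at day 28. On NP arrays 4a, 5a and 6a against 4f, 5f and 6f, Irf7 stood at 0.30, 1.04 and 0.02 against 0.68, 3.05 and 1.06. Cxcl10 stood at -2.53, -0.74 and -3.32 against -2.15, 2.13 and -1.08. For both genes NP 5f was the highest at day 28 and NP 5a at day 21. The differences between LP and NP in the day change did not pass the adjusted test for any member.

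Chemokine ligands, the secreted proteins that guide leukocytes, had 7 of 30 tested members higher and 0 lower, against 4.37% of all genes. The median was 0.70, and 0.46 without 6a. Besides Cxcl10 and Cxcl11 these were Cxcl9 (1.65), Cxcl17, Ccl5, Xcl1 (1.42) and Ccl4 (1.48). Cxcl17, a mucosal chemokine, stood at -2.12, -2.34 and -2.05 against -1.15, -1.64 and -0.75 (difference 0.99, adjusted p 0.347). Ccl5, a T cell and monocyte attractant, stood at -0.01, -0.74 and -0.26 against 0.31, 0.80 and 2.27 (difference 1.46). Groups did not overlap for Cxcl17 and Ccl5. The count of 7 fell to 4 without 4a or 6a and to 1 without 7c, and was 12 with all 12 arrays in 1 fit.

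Red cell genes had negative differences in all 12 tested members. Of these 11 were lower at an unadjusted p under 0.05 with groups that did not overlap, against 6.1% and 11.1% of all genes, and none was higher. The median was -1.30, or -1.28 without 6a, and -1.05 to -1.43 over all fits without 1 array, with 10 or 11 members lower in each. The summed level was 285.2 to 419.0 at day 21 and 181.0 to 191.0 at day 28. In bulk tissue such as this, fewer cells of a type and less RNA per cell cannot be told apart.

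Slc4a1, the band 3 anion exchanger of the red cell membrane, stood at -2.31, -2.18 and -1.90 at day 21 and at -4.62, -4.48 and -4.06 at day 28, which was 4.78-fold lower (SE 0.19, adjusted p 0.181). Alas2, the erythroid enzyme that starts haem synthesis, stood at 0.45, 0.80 and 0.97 against -1.23, -1.08 and -0.74 (3.38-fold lower). Ahsp, which stabilises free alpha globin, stood at 0.57, 0.37 and 0.68 against -1.03, -1.68 and -0.94. For all 3 genes every day 21 array lay above every day 28 array. The globin probes Hba-a3 (-1.86), Hbb-bs (-1.69), Hbb-b1 (-0.98), Hba-a1 (-0.81) and Hbb (-0.55) were lower too, but globin genes are near-identical copies and a probe may read more than 1 of them. Hemgn (-1.62), a nuclear protein of erythroid precursors that was well above background on 2 of 3 day 28 arrays, Fech (-0.51), the last enzyme of haem synthesis, and Bpgm (-0.50), which makes the red cell's 2,3-bisphosphoglycerate, were also lower, while Gypc, a membrane glycoprotein, did not reach that p (-0.27, adjusted p 0.573).

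Genes outside the list with known red cell roles stood beside them. Rhd, a blood group antigen, stood at -2.24, -2.28 and -1.97 against -3.71, -3.76 and -4.07 (difference -1.68, adjusted p 0.181). Car2, the carbonic anhydrase of red cells and other tissues, differed by -0.85, Hbe2, another globin gene, by -1.41 and Tmcc2 by -1.52. In NP glands 9 of the 12 listed genes were lower (3.16% of all genes) with a median of -1.04, and Slc4a1 differed by -2.16.

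**Figure D2:**
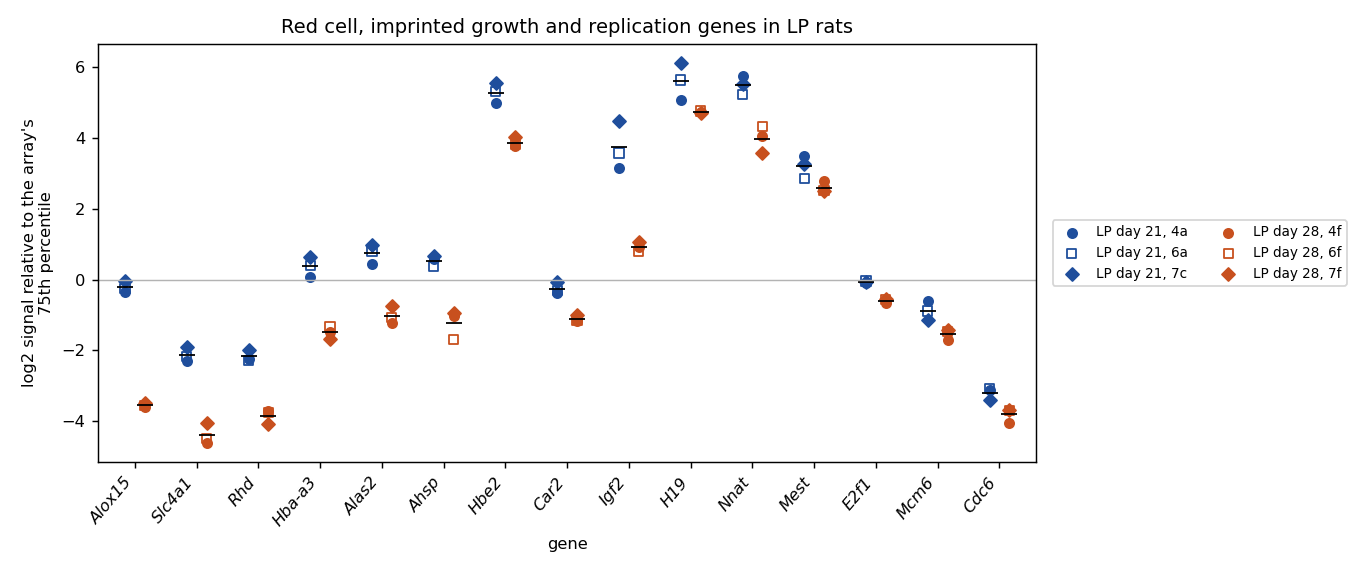
Level of 15 genes with lower values at day 28 on each LP array, as log2 of the processed signal relative to the array's 75th percentile (y axis); each point is 1 array, by day. The plotted genes were chosen largely by low p on these same arrays, so their separation by day followed from the choice. In the full lists, groups were lower without overlap for 11 of 12 red cell, 9 of 25 IGF and imprinted and 17 of 47 cell cycle members, against 11.1% of all genes. Igf2 runs from 3.16 to 4.49 at day 21 against 0.79 to 1.07 at day 28.

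In the list of IGF axis and imprinted growth genes, 8 of 25 were lower and 1 higher, against 6.1% and 4.37% of all genes. The median was -0.21. The count of 8 was 5 without 6a or 7f, 4 without 7c or 4f, 3 without 6f and 3 with all 12 arrays in 1 fit. Igf2, the fetal growth factor expressed from the paternal copy (probe at chr1:202906641-202906700, rn4, minus strand), stood at 3.16, 3.58 and 4.49 at day 21 and at 0.91, 0.79 and 1.07 at day 28. The groups were far apart, with a 7.05-fold lower level at day 28 (SE 0.34, adjusted p 0.222). In NP glands the Igf2 difference was -1.81, and the difference between diets, -1.01, did not reach an unadjusted p of 0.05. H19, the imprinted RNA next to Igf2, stood at 5.07, 5.64 and 6.12 against 4.73, 4.76 and 4.71 (difference -0.88). Nnat, an imprinted membrane proteolipid, stood at 5.77, 5.22 and 5.52 against 4.06, 4.32 and 3.57 (difference -1.52; NP -2.67). Neither overlapped.

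Further imprinted members differed less. Mest, a marker of fat tissue expansion, differed by -0.61, Ndn by -0.42, Plagl1 by -0.38 and Igf2r, which clears Igf2, by -0.27. Igf2bp2, an RNA-binding protein, differed by -0.55 at its brightest probe and another of its 2 probes went the other way. Igf1, the postnatal growth factor, was the 1 member higher, at 5.07, 5.10 and 5.41 against 5.52, 5.62 and 5.51 (difference 0.36, adjusted p 0.415). Its receptor Igf1r differed by -0.28 (adjusted p 0.476).

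Replication genes had small negative differences. In the cell cycle list 45 of 47 members were below 0, with a median of -0.28 (-0.22 without 6a). At an unadjusted p under 0.05, 15 were lower and none higher, against 6.1% and 4.37% of all genes. The count of 15 was 9 without 4a, 8 without 6a or 4f, 22 without 7c and 5 with all 12 arrays in 1 fit. E2f1, a factor that drives entry into S phase, stood at -0.10, -0.04 and -0.08 against -0.67, -0.57 and -0.55, 1.44-fold lower with tight groups (adjusted p 0.299). Members of the MCM helicase that unwinds DNA were lower, with Mcm2 at -0.53, Mcm4 at -0.45, Mcm5 at -0.51 and Mcm6 at -0.65. Cdc6 (-0.61), which loads that helicase, Gins2 (-0.45), a part of its active form, Ccne2 (-0.65), the cyclin of the G1 to S step, and Rrm1 (-0.40), a ribonucleotide reductase subunit, were lower as well.

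Mcm6 stood at -0.61, -0.88 and -1.14 at day 21 and at -1.71, -1.46 and -1.41 at day 28, with no overlap and 4f lowest. Top2a, a topoisomerase (-0.33, adjusted p 0.472), Cdk1, the kinase of entry into mitosis (-0.31, adjusted p 0.526), and Ccnd1, a cyclin of G1 (-0.45, adjusted p 0.474), did not reach that p. In NP glands the list had a median of -0.74 with 0 members lower at that p (3.16% of all genes). Of the NP arrays of day 28, 1 (labelled 4f) stood apart. Cdk1 was at -1.03 there against 1.45 and 1.78, and E2f1 at -1.72 against -0.52 and -0.37. The promoters of Mcm5 and Mcm6 are shown because they hold an E2F site (TTTGGCGC or TTTCCCGC, both strands), in capitals, from RefSeq GRCr8 and along the gene's strand.
Mcm5: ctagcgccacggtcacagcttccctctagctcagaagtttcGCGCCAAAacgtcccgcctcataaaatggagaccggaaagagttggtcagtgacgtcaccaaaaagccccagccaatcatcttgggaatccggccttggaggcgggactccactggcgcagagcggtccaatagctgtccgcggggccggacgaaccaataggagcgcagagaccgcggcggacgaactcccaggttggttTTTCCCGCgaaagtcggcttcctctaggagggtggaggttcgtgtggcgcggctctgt
Mcm6: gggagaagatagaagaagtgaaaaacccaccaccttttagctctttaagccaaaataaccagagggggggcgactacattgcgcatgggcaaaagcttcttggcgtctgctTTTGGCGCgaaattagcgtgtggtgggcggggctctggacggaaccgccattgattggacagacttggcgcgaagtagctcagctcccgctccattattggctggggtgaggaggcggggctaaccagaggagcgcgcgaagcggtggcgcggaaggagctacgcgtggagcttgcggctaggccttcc
The windows are chr19:13488563-13488862 (plus strand) for Mcm5, with matches at -209 and -8, and chr13:42404303-42404602 (minus) for Mcm6, with a match at -139. This site was in 6 of the 33 members with a promoter (18.2%; Mcm3, Mcm5, Mcm6, Mcm7, Tyms and Gins1) against 1.53% of all promoters. The CCAAT box was in 23 of 33 (69.7%) against 37.7%, and the cell cycle homology region (TTTGAA or TTCGAA) in 17 of 33 (51.5%) against 19.5%.

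The vessel list, endothelium and angiogenesis, had 10 of 29 members lower and 1 higher, against 6.1% and 4.37% of all genes. Its median was -0.25 (-0.28 without 6a), with 6 lower without 6f. Esm1, a secreted product of sprouting tip cells, stood at -1.45, -1.17 and -1.60 against -2.12, -2.33 and -2.12 (difference -0.78, adjusted p 0.325). Its NP difference was 0.49, and the difference between diets was -1.27 (adjusted p 0.9999). The receptors Tie1 (-0.78), Tek (-0.51), Flt1 (-0.41) and Aplnr (-0.59), the nitric oxide synthase Nos3 (-0.55) and the co-receptor Eng (-0.52) were lower. The day groups overlapped for the endothelial markers Pecam1 (1.94, 1.78 and 2.10 against 2.06, 1.93 and 1.61), Kdr (3.36, 3.37 and 3.56 against 3.68, 3.40 and 3.16) and Cdh5. The summed level of the endothelial markers, Tek included, was 14.1 to 16.4 at day 21 and 12.3 to 17.3 at day 28. Tie1 stood at -1.09, -1.26 and -1.19 against -1.89, -1.69 and -2.30, and neither Esm1 nor Tie1 had overlapping groups. The ligands of Tek had differences of opposite sign, with Angpt1, its activator, at 0.45 (adjusted p 0.418) and Angpt2, its context-dependent antagonist, at -0.50 (adjusted p 0.401).

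The Notch list had 3 of 18 members lower and 0 higher (median -0.24), against 6.1% and 4.37% of all genes. The 3 were Notch4 (-0.39), an endothelial receptor, Notch3 (-0.46), a receptor of mural cells, and Hey1 (-0.32), a target gene. The Notch list had 1 lower without 6a or 6f and 5 without 7f. Among TGF-beta ligands, receptors and Smads, 4 of 28 were lower and 1 higher, against the same shares of all genes. The count of 4 was 6 without 4a, 3 without 6a and 2 without 4f or 7f. Gdf10 (-0.83) and Inhba (-0.67) are ligands of this family and were lower, and Id3, an inhibitor of differentiation factors induced by BMP signals, stood at -2.20, -2.76 and -1.99 against -1.60, -1.62 and -1.51 (difference 0.74). Frzb, a secreted Wnt antagonist, stood at -0.86, -0.84 and -1.10 against 0.36, 0.07 and -0.31 (difference 0.97, adjusted p 0.325). Frzb and Wnt6 (-0.39) were the 1 higher and the 1 lower of 33 members of the Wnt list at that p, and Spry1 (-0.44), a feedback inhibitor, was the 1 lower of 19 in the FGF list, shares no larger than over all genes.

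Stroma differed in a few members. Collagens and their processing enzymes had 5 of 37 lower and 0 higher, against 6.1% and 4.37% of all genes. Their median was -0.15, or -0.09 with 4 lower without 6a, and 2 were lower without 6f and 3 without 4f. Among the 5 were Col4a2 (-0.48), a basement membrane chain, and the lysyl oxidases Loxl3 (-0.51) and Loxl1 (-0.42). The other matrix list (median -0.09, or -0.04 without 6a) had 4 of 32 lower, Ltbp2 (-0.99), Fbln2 (-0.66), Fbln5 (-0.55) and Vcan (-0.49), which are elastic fibre and provisional matrix proteins, with 6 lower without 4a and 2 without 4f. Ogn, a small leucine-rich proteoglycan, was the 1 higher, at 1.70, 1.91 and 2.09 against 2.46, 2.69 and 2.84 (difference 0.76, adjusted p 0.325; NP -0.36). Mmp12, the macrophage elastase, stood at -4.4, -4.44 and -4.76 against -3.31, -3.45 and -3.30, 2.26-fold higher at day 28 with no overlap (adjusted p 0.222).

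In the nerve and Schwann cell list 4 of 16 members were lower and 1 higher, against 6.1% and 4.37% of all genes. The median was -0.47. Without 6a the median was -0.64 and 7 were lower, and without 4a, 7c or 7f 2 were lower. Prx, a myelin protein of Schwann cells, stood at -2.81, -3.33 and -2.59 against -3.61, -3.79 and -3.84 (difference -0.84, adjusted p 0.347). Gap43 (-0.75), a growth cone protein, and Prph (-0.70), a neurofilament of peripheral neurons, were also lower, and Cnp, a myelin enzyme, was higher (0.61). In NP glands 7 members were lower (3.16% of all genes) with a median of -0.55.

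Lymphocyte genes depended on 1 array. T and NK cell genes were lowest of all 6 on 6a for 29 of 31 members, B and plasma cell genes for 19 of 22 and MHC class II genes for 10 of 10. The summed T and NK level was 2.01 on 6a and 35.8 to 43.6 on the other 5 arrays. The T and NK median of 1.60 became -0.10 without 6a, that of B and plasma cells went from 1.44 to 0.13, and that of MHC class II from 1.04 to 0.24. Cd3e, a chain of the T cell receptor complex, stood at -0.33, -7.12 and -0.65 against -0.58, -0.61 and -1.07. Apart from 6a its values overlapped between the days.

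Glycam1, Ccl19 and Cd74 were also lower on 6a than on any other LP array, Cd74 by less than the others. Glycam1, an adhesion ligand made by lymph node venules and also by milk-producing epithelium, stood at 4.48, -4.06 and 4.39 against 4.92, 4.54 and 2.48. Ccl19, the chemokine of the T cell zone, stood at 3.93, -2.28 and 3.83 against 3.85, 3.91 and 4.67. Cd74, the MHC class II chaperone, stood at 4.25, 2.09 and 3.78 against 4.4, 4.52 and 4.16. The glands had been cleared of visible lymph nodes, and how much node tissue remained in each sample was not tested.

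Array 6a was also the highest for other tissues. Luminal epithelial genes were highest there for 24 of 24 members (summed level 96.3 against 35.04 to 58.5) and skeletal muscle genes for 25 of 27. The summed muscle level was 230 on 6a, 176 on 6f and 5.2 to 24.3 on the other 4 arrays. Acta1, the actin of skeletal muscle, stood at -2.38, 3.84 and 0.05 against -2.74, 3.22 and -2.25, so 1 array of each day was high. Krt1, a keratin of the epidermis, stood at -6.72, -0.21 and -6.88 against -6.49, -6.84 and -7.19. The medians without 6a moved from -0.95 to 0.69 for muscle, from -1.02 to 0.09 for epidermis, from -0.14 to 0.27 for luminal and from -0.25 to 0.06 for basal cells.

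**Figure D3:**
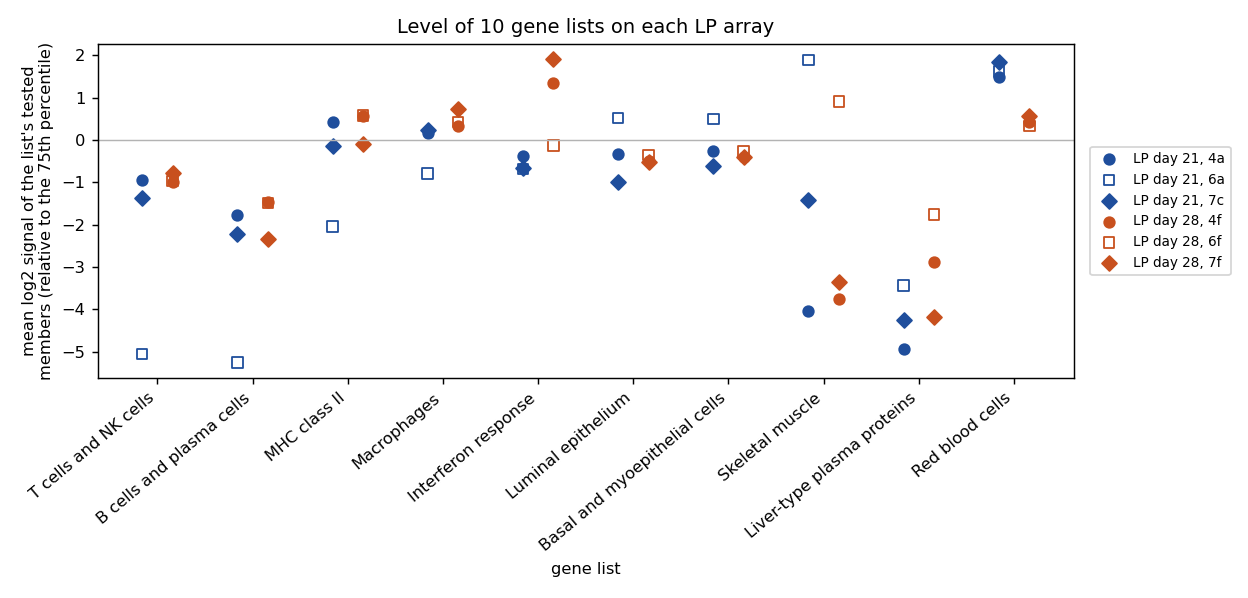
Mean level of the members of 10 gene lists on each LP array (y axis, log2 relative to the array's 75th percentile); each point is 1 array and colour marks the day. Array 6a is low for T and NK cells, B cells and MHC class II and high for muscle and luminal epithelium, while the red cell list separates the days.

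Macrophage genes had 5 of 29 members higher and 0 lower, against 4.37% and 6.1% of all genes. The median was 0.59 (0.34 without 6a). The count ran from 1 without 7f to 7 without 7c, and was 3 without 4a, 2 without 6f and 11 with all 12 arrays in 1 fit. Fcgr3a, a low-affinity IgG receptor, stood at -4.32, -4.39 and -4.56 against -2.35, -3.39 and -0.96 (difference 2.19, adjusted p 0.382). Fcgr1a (0.75), the high-affinity receptor, C1qb (0.59), of complement, Aif1 (0.84) and Cd5l (1.58) were higher, but Cd5l was well above background on 1 of 3 arrays at day 21 and 2 of 3 at day 28. In the list 28 of 29 members had a positive difference. The day groups overlapped for the macrophage markers Cd68, Cd163, C1qa and Csf1r (0.03, -0.86 and -0.01 against -0.38, -0.14 and -0.09). The summed level of these markers was 8.3 to 14.5 at day 21 and 13.8 to 23.8 at day 28. Array 7f was the highest of all 6 for 19 of the 29 members.

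At that p 4 of 31 members of the T and NK list were higher with all arrays, 0 without 6a or without 7c, 1 without 4a and 2 without 6f. In the B and plasma cell list 2 of 22 members were higher, 1 of them without 6a. Over all genes 4.37% were higher. Gzmk, a granzyme of cytotoxic lymphocytes, stood at -4.44, -5.01 and -4.43 against -3.76, -3.31 and -1.35 (difference 1.82, adjusted p 0.423). Gzmb, another granzyme, stood at -5.08, -4.62 and -7.16 against -3.57, -4.0 and 0.02, with 7f far above the rest and 2 of 3 day 21 arrays well above background. Klrb1a (1.38), an NK cell receptor, was also highest on 7f. Tnfrsf17, the survival receptor BCMA of plasma cells, was not well above background on any day 21 array and stood at -4.84, -3.70 and -5.57 at day 28, at least 3.89-fold higher. Tnfrsf17 passed the filter through the day 28 arrays alone, so its place in the list's count gives no separate support. Mzb1, a chaperone of antibody assembly, differed by 2.24, or by 1.29 without 6a, where it no longer reached that p, from -3.91, -7.20 and -4.82 (2 of 3 well above background) to -2.86, -2.43 and -3.93.

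Rnase3 and Rnase2, eosinophil-type ribonucleases named here for their low p, had positive differences in LP. Rnase3 (named Ear11 on the array) stood at -4.04, -4.50 and -3.98 against -2.78, -2.51 and -2.21 (difference 1.67, adjusted p 0.236). Rnase2 stood at -2.28, -2.74 and -2.06 against -1.13, -0.86 and -0.41 (difference 1.56). The day groups were clear of each other for both genes. Their NP differences were -0.06 and 0.23, and the differences between diets, 1.73 and 1.33, had adjusted p 0.9999. The mast cell and granulocyte list had 0 of 17 members at an unadjusted p under 0.05 in either direction with all 6 arrays, and 3 lower without 6a. Over all genes 4.37% were higher and 6.1% lower. Btnl7, a butyrophilin-like gene, had the lowest p among higher genes, at -5.72, -5.91 and -5.71 against -4.12, -4.39 and -4.28 (difference 1.52, adjusted p 0.149). Fgl2, a fibrinogen-like protein of macrophages and T cells, differed by 1.32.

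Liver-type plasma proteins had a median of 1.41 (1.68 without 6a, 0.60 without 6f, 0.92 without 7c, 2.04 without 7f and 0.78 with normexp), with 2 of 18 higher and 16 with a positive difference. Over all genes 4.37% were higher. The count of 2 was 10 without 7f, 1 without 4f or 6f, 7 with normexp and 3 with all 12 arrays in 1 fit. Alb, albumin, stood at -1.53, -0.27 and 0.87 against 2.03, 2.25 and 1.32 (difference 2.18, adjusted p 0.39). Ambp, the precursor of alpha-1-microglobulin, stood at -8.40, -4.77 and -5.69 against -3.20, -2.16 and -3.98 (difference 3.18). Ttr, the thyroid hormone carrier, stood at -7.41, -2.69 and -3.90 against -1.52, 0.46 and -5.39 (adjusted p 0.642), with overlap on 7f. Ambp and Ttr were well above background on 2 of 3 day 21 arrays.

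Core clock genes form a feedback loop whose members rise and fall over each day. In LP the median was -0.37 (-0.29 without 6a, -0.13 with normexp). Of 16 members 3 were lower and 0 higher in LP, against 6.1% and 4.37% of all genes. The 3 were Cry2 (-0.43, adjusted p 0.347) and Per2 (-0.61), both repressors, and Tef (-0.71), an output factor. The count ran from 1 without 4a to 5 without 6a or 7c. Tef stood at 0.89, 0.30 and 0.30 against -0.65, -0.09 and 0.09 in LP and at -0.19, 0.26 and 0.41 against 0.63, 0.61 and 0.73 in NP. Its groups did not overlap in either diet and went in opposite directions, with a difference between diets of -1.21 (SE 0.33, adjusted p 0.9999).

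Dbp, a clock output factor related to Tef, stood at 2.64, 1.45 and 1.59 against 1.25, 1.22 and 1.63 in LP (difference -0.53). In NP it stood at 1.40, 1.38 and 1.74 against 2.31, 2.63 and 2.77 (difference 1.06). Nr1d1, the repressor REV-ERB alpha, differed by -1.03 in LP and 1.42 in NP, and Nr1d2 by -0.50 and 0.47. Bmal1 (named Arntl on the array), an activator of the loop, differed by 0.46 in LP and -0.44 in NP, its relative Npas2 by 0.66 and -0.11, and the repressor Nfil3 by 0.20 and -0.93, but Nfil3 in LP was -0.0695 without 4a. Of the 16 members 7 had a difference between diets at an unadjusted p under 0.05, against 2.26% of probes, and none passed the adjusted test. No hour of collection is given for these glands, so its part in these differences was not tested. Array 4a stood apart at day 21, highest for Dbp and Tef and lowest for Bmal1 and Npas2. The E-box CACGTG was in 3 of 15 promoters (Tef, Bhlhe40 and Bhlhe41) against 6.65% of all, and the D-box TTATGTAA in 1 (Per2) against 0.881%.

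**Figure D4:**
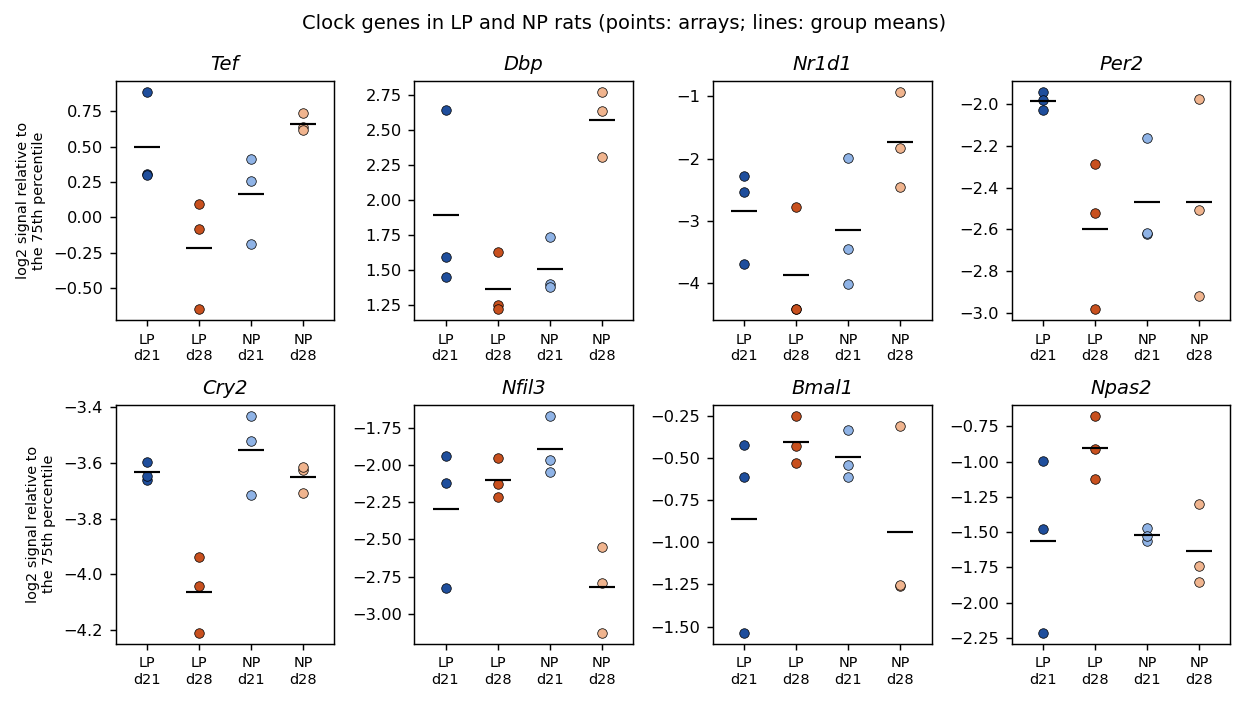
Level of 8 clock genes on each array in LP and in NP (y axis, log2 relative to the array's 75th percentile); each point is 1 array, by diet and day. Dbp runs from 1.45 to 2.64 at day 21 and 1.22 to 1.63 at day 28 in LP, against 1.38 to 1.74 and 2.31 to 2.77 in NP.

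Epithelial and milk genes separated the days in shares near or below those of all genes. Groups did not overlap for 1 of 14 milk genes (higher), 1 of 24 luminal genes and 2 of 17 basal genes (lower). Over all genes 7.66% were higher and 11.1% lower without overlap. The milk protein list had 0 of 14 members at that p (2 higher without 6a), against 4.37% of all genes higher and 6.1% lower. Its median was 0.32, and 7c was the lowest array for 7 of its members. Csn3, kappa casein, stood at -1.25, 1.82 and -3.93 against 1.46, 0.86 and -0.06 (difference 1.87, adjusted p 0.656), and Wap, a whey protein, differed by 0.55 (adjusted p 0.709). Epcam, Krt18 and Krt5, markers of all epithelium, luminal and basal cells, differed by -0.04, -0.06 and -0.27 (adjusted p 0.978, 0.958 and 0.858), and without 6a by 0.39, 0.27 and 0.26. Prom1 (-0.53), a luminal surface protein, was the 1 luminal gene of 24 lower, and Tagln (-0.47), of contractile cells, the 1 basal gene of 17. Over all genes 6.1% were lower. In the hormone list Pthlh, which patterns the embryonic mammary bud, differed by -0.53 and Socs2, a brake on growth hormone signalling, by 0.45.

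Fat synthesis genes split the day 28 arrays. Of 27 members 2 were higher, among them Tkt (0.60), of the pentose phosphate pathway, against 4.37% of all genes. But 14 were higher without 6f, 1 without 6a and 0 without 4a, 7c or 4f. The median was 0.25, or 0.29 without 6a. Fasn, fatty acid synthase, stood at 4.87, 5.64 and 5.06 against 6.67, 4.80 and 6.60, so 4f and 7f were high while 6f lay below day 21 (difference 0.83, adjusted p 0.609). Me1 (1.43), which supplies reducing power, Acly (0.98), which makes cytosolic acetyl-CoA, and Elovl6 (1.16), an elongase, followed the same order without reaching that p. Array 6f was the lowest of all 6 for 17 of 27 members, and the summed level was 222 on 6f against 511 and 483 on 4f and 7f and 251 to 356 at day 21. On 6f muscle genes were high, as given above, and their part in this split was not tested.

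Among genes of fat cells, Agt, angiotensinogen, stood at 3.57, 3.21 and 3.71 against 4.95, 4.31 and 4.81 (difference 1.19, adjusted p 0.325), and Retn, resistin, at 5.19, 5.39 and 5.68 against 6.29, 5.74 and 6.04 (difference 0.61). These were the 2 of 20 adipocyte genes higher (1 without 4a or 7f, 2 without 6a, 4 without 7c and 5 without 6f), and neither overlapped. Over all genes 4.37% were higher. The adipocyte list had 12 members above 0 and 8 below, with a median of 0.11. Lep, leptin, stood at -3.16, -2.65 and -2.84 against -3.41, -3.97 and -2.85. Gcgr, the glucagon receptor, stood at -3.59, -4.04 and -3.90 against -1.07, -2.49 and -1.61 (difference 2.12, adjusted p 0.325), with an NP difference of 2.49. Ucp3 (0.72), a mitochondrial carrier, Decr1 (0.41), of unsaturated fatty acid oxidation, Slc27a2 (1.43), a fatty acid transporter, and Sod3 (0.60), the extracellular superoxide dismutase, were higher. The medians of their lists were near 0. Lipolysis and fatty acid oxidation had 2 of 29 members higher and 0 lower (median -0.01). Brown fat and thermogenesis had 1 of 14 higher and 0 lower (-0.01), and antioxidant enzymes 3 of 30 higher and 1 lower (0.01).

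Several genes with low p belonged to no list. Sytl5, a vesicle trafficking protein, stood at -5.38, -4.77 and -5.56 against -3.49, -2.80 and -3.39 (difference 2.01). Msln, mesothelin, stood at -4.02, -3.76 and -4.63 against -2.78, -1.96 and -2.19 (difference 1.82). Both were clear of overlap. Hrh3 (0.58), a histamine receptor, Pax8 (0.66), a developmental factor, and Tac4 (0.79), a tachykinin, were higher. Zfp36 (0.58), which destabilises cytokine mRNAs and belongs to the immediate-early list, was also higher. In that list 1 of 23 members was higher at an unadjusted p under 0.05 and 0 lower, against 4.37% and 6.1% of all genes. The list's median was 0.02. Tbx2 (-0.71), a T-box factor of mammary development, and Emp1 (-0.71), a membrane protein, were lower. Prss3 was not well above background at day 21 and was at least 1.26-fold higher, and Necab3 was not well above background at day 28 and was at least 1.25-fold lower. Each passed the filter only through the day on which it was high.

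The difference between LP and NP in the change from day 21 to day 28 was tested in all 12 arrays. Of 23209 probes 0 passed an adjusted p of 0.05 (limma, lowest adjusted p 0.541) and 525 had an unadjusted p under 0.05. Among genes with low p, Cebpe, a factor of granulocyte maturation, stood at -4.78, -5.17 and -5.19 against -4.60, -4.14 and -4.12 in LP (difference 0.76; NP -0.31). Apobec1, an RNA editing enzyme, stood at -0.15, -0.46 and -0.06 against 0.42, 0.48 and 0.82 (difference 0.80; NP -0.02). The diets differed by 1.07 for Cebpe and 0.82 for Apobec1, both with an adjusted p of 0.9999. Groups that did not overlap in both diets went the same way in 1113 genes and opposite ways in 18.

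The DNA methylation and chromatin list had 24 of 28 members below 0 with a median of -0.15 (-0.13 without 6a). At an unadjusted p under 0.05, 2 were lower and 1 higher, near the 6.1% and 4.37% over all genes. The ribosomal protein list had 0 of 84 and the respiratory list 0 of 95 members at that p with all 6 arrays, although 76 ribosomal genes had a positive difference (median 0.09).

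**Figure D5:**
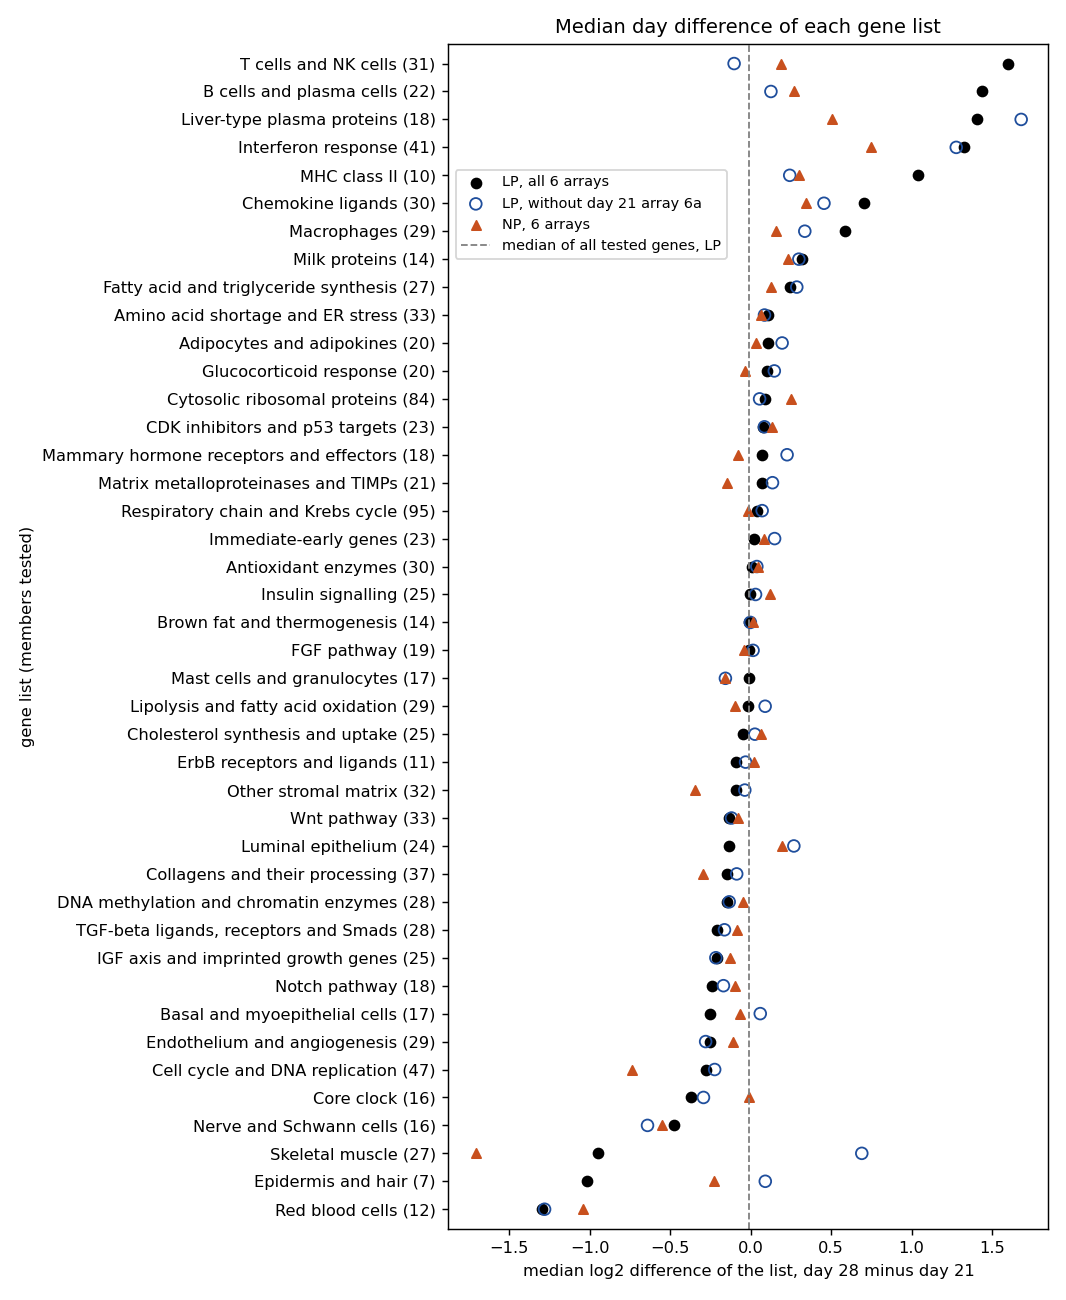
Median day 28 minus day 21 difference (x axis, log2) of the 42 gene lists (y axis) in LP with all arrays, in LP without 6a and in NP; each point is the median over the tested members of 1 list. The interferon (1.33) and red cell (-1.30) medians barely move without 6a, whereas those of T and NK cells (1.60 to -0.10) and muscle (-0.95 to 0.69) do.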

How the data were processed

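Total RNA of 12 rat mammary glands was hybridised to 1-colour (Cy3) Agilent arrays, 1 per sample. Per the file headers, the deposited scanner intensity was made with Feature Extraction 10.7.3.1, which subtracted background and removed spatial trends within each array, with no scaling between arrays and an annotation on rn4. The deposited value table holds a ratio, the processed signal over each array's median gene signal, as a comparison with the scanner values showed, and served as an alternative. The LP arrays had 74.8 to 78.1% of gene spots well above background and no saturated spots.

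Control spots and outlier flags were left out, spots of a probe were averaged and log2 of the processed signal minus the array's 75th percentile was taken. A probe was fitted where 3 or more of the 6 LP arrays (12 arrays for the test between diets) showed it well above background, using limma 3.58.1 in R 4.3.3 on day alone, with Benjamini-Hochberg adjustment over all tested probes. A gene's value is that of its brightest tested probe. For a probe below background on all arrays of a group, the fold is a bound, taken against the higher, per array, of its own signal and the lowest signal well above background. Symbols were updated through RefSeq accessions (17990 of 30367 probes matched, 3792 renamed). Fits were tested on simulated data.

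Members and the 42 gene lists were chosen with earlier results of these data known. Named genes were the 15 in each direction with the largest differences at adjusted p under 0.05 and non-overlapping groups, filled by lowest p, then from each list the first 3 members and up to 5 with the lowest p, the 5 in each direction with the lowest p for the difference between diets, and the brightest genes among the adjusted calls. Chosen outside that rule after their values were seen were Ifit3, Mx1, Oas1a, Oasl2, Usp18, Ifih1, Ddx58, Dhx58, Gbp2, Psmb8, Psmb9, Irf9, Stat2, Rsad2, Tlr3, Xcl1, Ccl4, Hemgn, Bpgm, Fech, Gypc, Hbb-bs, Ndn, Plagl1, Igf1r, Mcm4, Mcm5, Mcm6, Rrm1, Cdk1, Ccnd1, Tek, Angpt1, Angpt2, Glycam1, Ccl19 and Nr1d2. Alternatives changed the background correction (normexp, offset 50), scaling, filter, probe choice, array weights, the samples in the fit, the label number as a block, and left out each array in turn. Some members of the lists are counted but not reported here by name.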

Additional observations from a re-analysis of the deposited data

Results flagged for a closer look

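In Tef, Cebpe and Srgap1, the day groups did not overlap in LP or in NP and lay in opposite directions, and the test of the difference between diets passed the unadjusted but not the adjusted threshold (limma). They were picked for this pattern among the named genes, some of which were chosen by a low p in that test. The pattern and the unadjusted p are thus no separate support. Of 19312 tested genes, 18 had this pattern, and 1113 without overlap in both diets went the same way. Tef differed by -1.21 between diets (adjusted p 0.9999), with -0.71 in LP and 0.50 in NP. Cebpe differed by 1.07 (adjusted p 0.9999), with 0.76 in LP and -0.31 in NP. Srgap1, a GTPase-activating protein of cell migration, stood at -4.75, -4.67 and -4.75 against -4.85, -4.88 and -5.05 in LP (difference -0.20, but 0.015 with normexp, so its direction there turned with the background correction) and differed by 0.32 in NP, so the diets differed by -0.52 (adjusted p 0.9999). In all 3 genes each of the 3 day 28 arrays lay on the same side of every day 21 array within a diet.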

How the results depend on the processing

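The single adjusted call, Alox15, became 0 calls with all 12 arrays in 1 fit and with the replicate block (label number as a block, adjusted p 0.160), and 0 to 1 without 1 array in turn. Its difference was -2.83 with normexp. The share of 2-fold genes that were higher was 86.8% with normexp and 55.3 to 77.7% without 1 array. No difference between diets passed the adjusted test under any setting run. Deviations of same-numbered arrays correlated at 0.404 (4a and 4f), 0.202 (6a and 6f) and -0.068 (7c and 7f). Arrays 4a and 6a each correlated best with their own number and 7c did not. The set rule asked for a correlation in all 3 pairs, so the main fit did not pair the arrays. Whether same-numbered arrays came from related animals was not tested. With 1 array per day in each block, the block kept each difference and could not turn a direction.

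Of 171 genes, 10 turned direction, in 16 of 2893 values under up to 17 settings. None of the 135 genes with an unadjusted p under 0.05 did. The 2893 values include settings that returned the main difference and so could not turn a direction. Among these were the block, the joint fit of both diets and the changes of filter and probe choice. The 135 genes were selected by p in the same arrays, so their count is not a separate test of direction. Without 1 array in turn, Tlr3 ran from -0.0388 (without 7f) to 0.89, Nfil3 from -0.0695 (without 4a) to 0.37, Cd3e from -0.26 to 3.13, Glycam1 from -0.45 to 3.82, Acta1 from -2.997 to 0.58, Ckm from -3.54 to 1.03, Epcam from -0.48 to 0.39, Krt18 from -0.41 to 0.27 and Krt5 from -0.78 to 0.26, the last 7 changing sign without 6a. Without 4f Ckm was 0.46 and Epcam 0.03. With array weights Ckm was 0.0801, Epcam 0.15 and Krt18 0.11. With normexp Epcam was 0.0028 and Srgap1 0.015. The 714 list medians include those under the block and the joint fit, which equal the main ones. Of the 714, 8 moved by more than the spread between replicates, among them clock genes (-0.13 with normexp) and T and NK cells (-0.10 without 6a). The cause was not tested. Signals near background limit what could be seen for dim genes, and 3 arrays per group limit the rest.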
